A study of Arabidopsis thaliana with 12 samples.

Results

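Plants build fatty acids in the plastid, on acyl carrier protein, a small protein that holds the growing chain. Of the genes that encode this machinery, 3 were examined here in Arabidopsis thaliana plants given proline or water: AT1G24360, AT5G16230 and FATB. They were chosen as the genes of a ketoacyl carrier protein reductase, an acyl carrier protein desaturase and an acyl carrier protein thioesterase that each have a probe paired with exactly 1 gene. Each had 1 such probe, among 692 such probes for 691 genes in a table of 3439. One further probe lists AT5G16230 and another lists FATB, each together with other genes, and neither was read.

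Both groups were total RNA of wild-type plants, ecotype Wassilevskija. The 6 proline samples were from plants that had received 100 mM proline for 6 h, and the 6 water samples from plants that had received water, for a time the labels do not give. Treatment time and proline therefore cannot be told apart. The labels describe the proline dose as one that brings cellular proline to a toxic level. They name no organ, and none of the 13 organ marker genes looked for had a probe of its own, so the organ was not checked. Nothing in them states that samples came from separate plants, so the p-values reflect sample-to-sample spread that may be technical. Within each group, samples 1 and 2, 3 and 4, and 5 and 6 resembled each other more than the rest. Results are therefore also given with the means of these pairs, 3 values per group. Median deposited intensity was 0.213 to 0.361 in proline samples, highest in samples 3 and 4, and 0.171 to 0.188 in water samples. Levels below are intensities on the deposited linear scale of 0 to 100 after quantile normalization between samples, unless called deposited.

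In the plastid pathway, acetyl-CoA is carboxylated to malonyl-CoA, the malonyl group passes to acyl carrier protein, and the chain then grows by repeated rounds of condensation, reduction, dehydration and reduction. Ketoacyl carrier protein reductase carries out the reduction that follows each condensation. Stearoyl carrier protein desaturases place a double bond in the finished saturated chain, which gives oleate, the precursor of most unsaturated fatty acids of leaf membranes and seed oil. Thioesterases end the process by releasing the free acid from its carrier: FATB acts mostly on saturated chains such as palmitate, which leave the plastid for membrane lipids and cuticular wax.

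The transcript of the chain-building reductase and that of the desaturase were lower with proline, and that of the thioesterase did not pass the test. Over the 3 genes, 2 fell and 0 rose (limma, Benjamini-Hochberg adjusted p under 0.05 over all 3097 tested probes). Over all tested probes 20.9% were called lower and 17.1% higher, and over the 620 tested probes with 1 gene 18.2% lower and 19.0% higher. With the replicate number as a block the same 2 genes were called, where 22.5% of all tested probes were called lower and 18.9% higher. The 3 genes had a median log2 fold change of -0.75, where all tested probes had one of -0.03. They were chosen with earlier results of these data known, so the count and the median do not test the pathway.

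AT1G24360, the reductase gene, had 0.730, 0.797, 0.603, 0.579, 0.786 and 0.724 in proline samples 1 to 6, against 1.22, 1.25, 1.15, 1.12, 1.14 and 1.18 in water samples 1 to 6. Every proline sample lay below every water sample, and proline samples 3 and 4 were the lowest. The mean was 0.703 ± 0.092 in proline and 1.18 ± 0.05 in water (SD, n = 6 each). The proline level was 0.593 of the water level (95% interval 0.511 to 0.689), which is -0.75 on the log2 scale with an SE of 0.10 (limma adjusted p = 9.1e-05). Of all tested probes, 12.1% had groups that did not overlap with proline lower, and 10.4% with proline higher. An exact permutation test of this gene alone gave p = 0.00216 (two-sided, n = 6 each), the smallest that 924 arrangements can give. Groups that do not overlap always give this p, so it only restates the separation. The test also shuffled samples singly, without regard to the likeness within pairs.

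AT5G16230, the desaturase gene, was measured by a dim probe. It stood at 0.0756, 0.0445, 0.0787, 0.0746, 0.0995 and 0.0924 in proline samples 1 to 6, against 0.116, 0.125, 0.124, 0.156, 0.130 and 0.138 in water samples 1 to 6. Again no proline sample reached the lowest water sample, and proline sample 2 lay closest to the floor of 0.0377, under which values were raised to it. The mean was 0.078 ± 0.019 in proline and 0.131 ± 0.014 in water (SD, n = 6 each). The log2 fold change was -0.80 (SE 0.17, limma adjusted p = 0.0032), a proline level of 0.575 of the water level (95% interval 0.443 to 0.747). The exact permutation p was 0.00216 here too (two-sided, n = 6 each), as the lack of overlap fixes it. Replacing the floor by a pseudocount left the gene lower by less (-0.39, limma adjusted p = 0.0036). Raising the floor to 0.1085 set all 6 proline samples to that value and left all 6 water samples above it. The result there (-0.27, limma adjusted p = 0.013) was thus fixed by the floor and is no check. Stearoyl carrier protein desaturases are a family of closely related copies in Arabidopsis, and which of them the probe measured was not tested.

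FATB, the thioesterase gene, had 0.243, 0.236, 0.148, 0.199, 0.321 and 0.321 in proline samples 1 to 6, against 0.237, 0.175, 0.233, 0.234, 0.422 and 0.400 in water samples 1 to 6. The groups overlapped over most of their range, and samples 5 and 6 were the highest in proline and in water alike. The mean was 0.245 ± 0.068 in proline and 0.283 ± 0.102 in water (SD, n = 6 each). The log2 fold change of -0.19 (SE 0.25) did not pass the test (limma adjusted p = 0.59). Its 95% interval ran from -0.73 to 0.36, which covers a proline level between 0.602 and 1.28 of the water level. With pairs as a random block the interval ran from -0.80 to 0.42, and with the means of pairs it was wider at both ends and reached 0.63. Both of these hold the reductase's -0.75, so in these fits a fall of that size in FATB could not be told from none. The main interval ended just short of -0.75, and that with the replicate number as a block (-0.53 to 0.16) did not hold it.

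**Figure D1:**
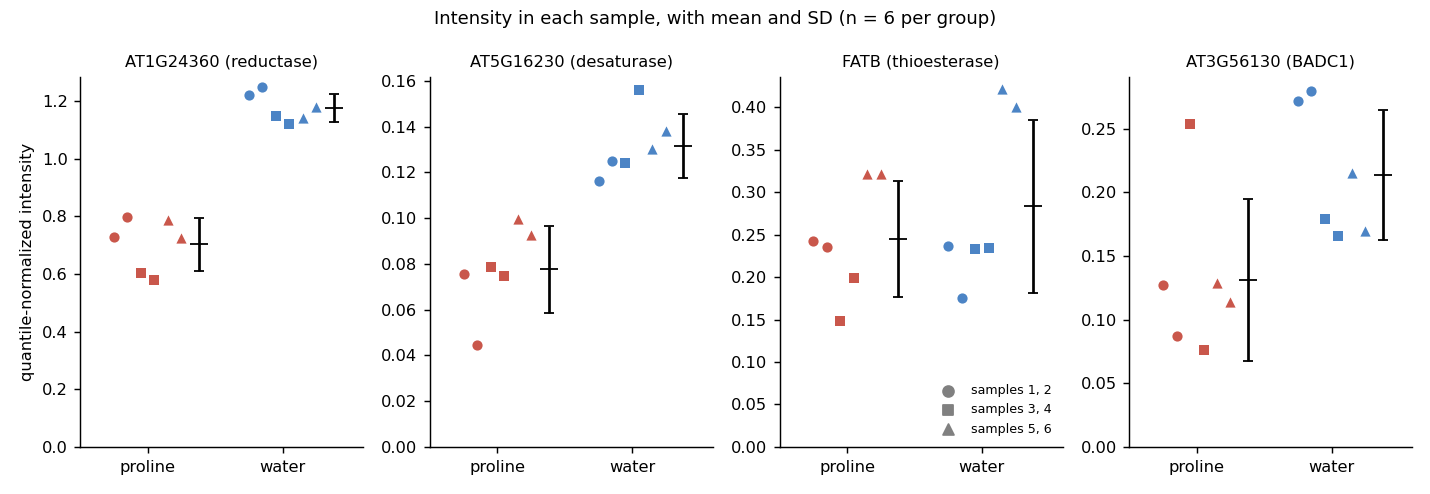
Quantile-normalized intensity of AT1G24360, AT5G16230, FATB and AT3G56130 (vertical axes, linear, each from 0) in the 6 proline samples (red, left) and the 6 water samples (blue, right); marker shapes show samples 1 and 2, 3 and 4, and 5 and 6, and the black bars are the mean and SD of each group. All proline samples lie below all water samples for AT1G24360 and AT5G16230, FATB overlaps with samples 5 and 6 high in both groups, and AT3G56130 overlaps through proline sample 3 at 0.254.

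How far the samples of a group scattered differed between the genes. The pooled SD within groups on the log2 scale was 0.14 for AT1G24360, 0.31 for AT5G16230 and 0.46 for FATB, where the median tested probe had 0.31. Only 7.88% of tested probes had a smaller SD than AT1G24360, and 74.1% had a smaller one than FATB. Much of the FATB spread lay between pairs. The geometric means of samples 1 and 2, 3 and 4, and 5 and 6 were 0.239, 0.172 and 0.321 in proline and 0.204, 0.233 and 0.411 in water.

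The labels use the same replicate numbers in both groups, and same-numbered samples deviated together over the array. Between samples of the same number, the log2 difference of AT1G24360, proline minus water, was -0.74, -0.65, -0.93, -0.96, -0.54 and -0.71 for numbers 1 to 6. That of AT5G16230 was -0.61, -1.49, -0.65, -1.07, -0.38 and -0.58. Both genes were thus lower in proline at all 6 numbers, the reductase by similar amounts and the desaturase most at number 2. Their groups did not overlap, so any pairing of the samples would give this direction at every number. For FATB the differences were 0.04, 0.43, -0.65, -0.23, -0.39 and -0.32, lower in proline at 4 of the 6 numbers. Averaged within the pairs, AT1G24360 differed by -0.69, -0.94 and -0.62, AT5G16230 by -1.05, -0.86 and -0.48, and FATB by 0.23, -0.44 and -0.36.

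**Figure D2:**
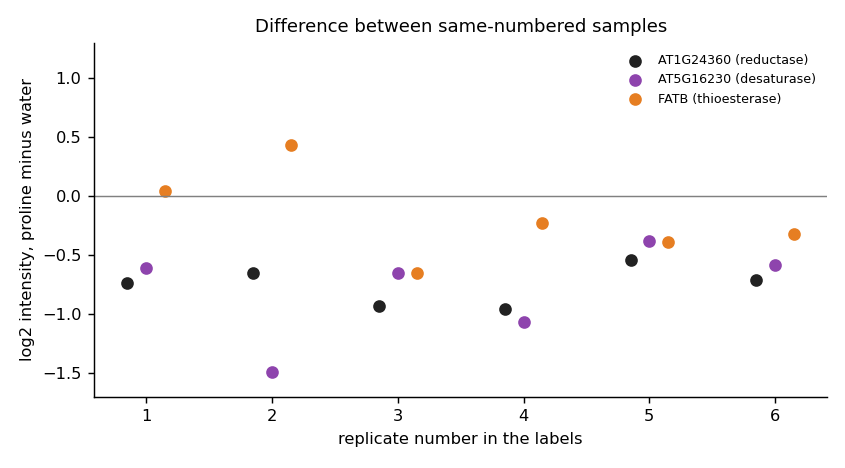
Log2 intensity in the proline sample minus that in the water sample of the same replicate number (vertical axis) for the replicate numbers 1 to 6 (horizontal axis), with 1 point per gene and number. AT1G24360 and AT5G16230 lie below 0 at every number, between -0.54 and -0.96 and between -0.38 and -1.49, and FATB lies above 0 at numbers 1 and 2.

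With the 3 means of pairs per group, AT1G24360 and AT5G16230 also passed (limma adjusted p = 0.027 and 0.049) and FATB did not (adjusted p = 0.75). In that fit 8.72% of all tested probes were called lower and 8.40% higher. Both calls were lost when certain means were left out. AT1G24360 failed when the mean of water samples 1 and 2, 3 and 4, or 5 and 6 was left out (adjusted p = 0.088, 0.086 and 0.073). AT5G16230 failed without any one of the means except that of proline samples 5 and 6 (adjusted p = 0.088 to 0.15).

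The values of all 3 genes moved with the scaling between samples. In the deposited values the log2 fold change of the median probe was 0.41, against -0.03 after quantile normalization. Deposited values of AT1G24360 were 0.842, 0.921, 0.835, 0.813, 0.871 and 0.804 in proline samples 1 to 6, against 0.918 to 1.11 in water samples. They overlapped between proline sample 2 and water sample 4 alone. The gene was lower by -0.26 there (limma adjusted p = 0.032), where 5.77% of all tested probes were called lower and 38.6% higher. Deposited values of AT5G16230 were 0.0609, 0.0302, 0.140, 0.131, 0.0822 and 0.0742 in proline samples 1 to 6, against 0.0932 to 0.126 in water samples. Proline samples 3 and 4, the samples with the highest medians, stood above every water sample and the other proline samples below every water sample. The gene did not pass there (log2 fold change -0.44, limma adjusted p = 0.23). FATB had 0.246 to 0.331 in proline samples, against 0.136 to 0.342 in water samples, and its log2 fold change turned to 0.44 (adjusted p = 0.13). Relative to the median of all tested probes, AT1G24360 was at -0.67 in the deposited values and -0.72 after quantile normalization. AT5G16230 was at -0.85 and -0.77, and FATB at 0.03 and -0.16, in the same order.

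**Figure D3:**
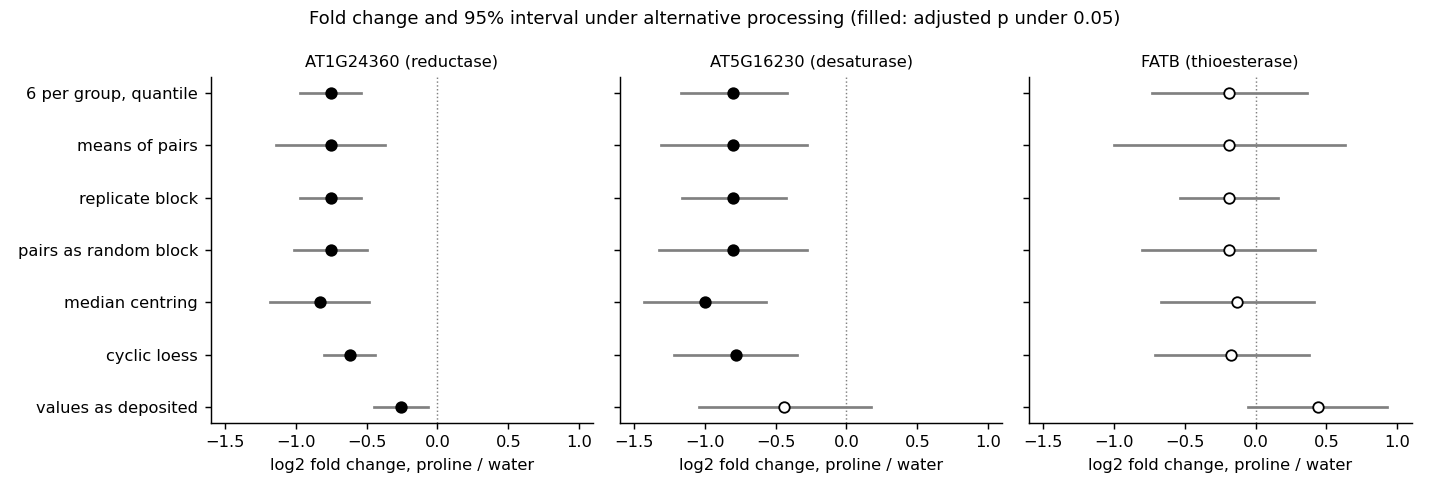
Log2 fold change of proline over water with its 95% interval (horizontal axes) for the 3 genes under the settings named on the left; filled points have a limma adjusted p under 0.05. AT1G24360 is filled in all 7 settings, from -0.83 to -0.26, AT5G16230 in all but the values as deposited (-0.44), and FATB in none, with its sign turned in the values as deposited (0.44).

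Whether the genes differed in response was tested on the log2 difference between a pair of genes within each sample, which drops any shift common to the sample. Between AT1G24360 and AT5G16230 the difference of responses was 0.04 (95% interval -0.43 to 0.52, exact permutation p = 0.920, n = 6 each). Between AT1G24360 and FATB it was -0.57 (95% interval -1.12 to -0.01, exact permutation p = 0.0519, adjusted over the 3 pairs of genes 0.101). For AT5G16230 against FATB the difference was -0.61 (95% interval -1.24 to 0.02, exact permutation p = 0.0671, adjusted 0.101). Neither passed after adjustment. With samples paired by number, AT1G24360 minus FATB was negative at all 6 numbers, and an exact sign-flip test gave p = 0.0312, the smallest of 64 arrangements. Adjusted over the 3 pairs of genes that is 0.0938, so this comparison could not have passed on its own in that test. For AT5G16230 minus FATB the paired exact p was 0.125 (adjusted 0.188). Without pairing, both differences from FATB passed narrowly under median centring (-0.70 and -0.86, exact permutation p adjusted over the 3 pairs 0.0487 for each). They also passed in the deposited values (-0.70 and -0.88, adjusted 0.0487). Median centring shifts a whole sample, which such a difference drops, so these are hardly separate checks. Both shuffled samples singly. With the means of pairs the differences were -0.57 (95% interval -1.59 to 0.45) and -0.61 (-1.68 to 0.46) and did not pass. With 3 values per group no exact permutation p can fall under 0.05, so that test could not decide.

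Set against the whole array, the falls of the reductase and the desaturase were moderate. Of the 3097 tested probes, 328 (10.6%) had a lower log2 fold change than AT1G24360, 293 (9.46%) a lower one than AT5G16230, and 1190 (38.4%) a lower one than FATB.

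**Figure D4:**
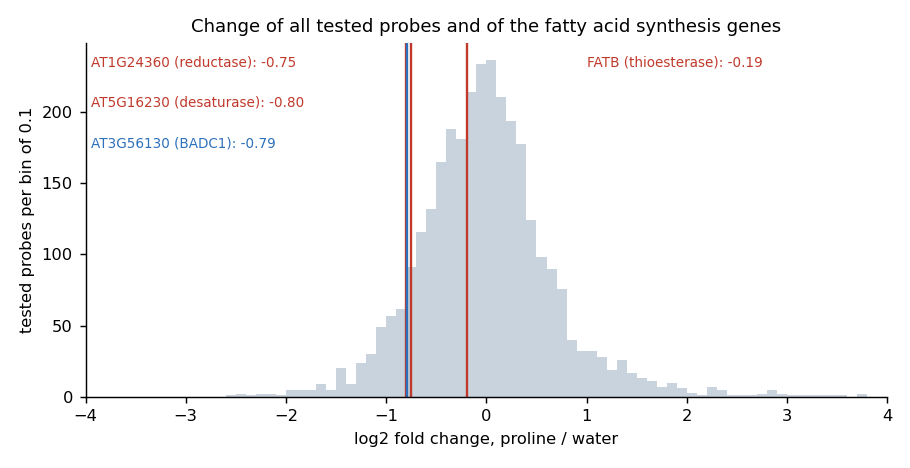
Number of tested probes per bin of 0.1 (vertical axis) by log2 fold change of proline over water (horizontal axis, cut at -4 and 4, with 2 probes outside), with red lines at the 3 fatty acid synthesis genes and a blue line at AT3G56130. AT1G24360 (-0.75), AT5G16230 (-0.80) and AT3G56130 (-0.79) lie together in the lower flank and FATB (-0.19) near the middle.

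The other genes of the pathway were hardly represented. Of 34 listed genes of plastid fatty acid synthesis, 4 had a probe of their own, the 3 above and AT3G56130. Condensing enzymes, dehydratases, the enoyl reductase, acyl carrier proteins and the catalytic subunits of acetyl-CoA carboxylase are not analysed here. Neither are the listed genes of acetyl-CoA supply, glycerolipid synthesis in plastid and endoplasmic reticulum, chain elongation and wax, fatty acid breakdown and fatty-acid-derived signals, of which none had a probe paired with that gene alone. AT3G56130 is BADC1, which resembles the biotin carrier of plastid acetyl-CoA carboxylase, lacks the biotin and lowers the activity of that enzyme at the entry of the pathway.

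BADC1 stood at 0.127, 0.0869, 0.254, 0.0761, 0.129 and 0.114 in proline samples 1 to 6, against 0.272, 0.280, 0.179, 0.166, 0.215 and 0.170 in water samples 1 to 6. All proline samples but sample 3 lay below all water samples, and sample 3 lay among the highest of all 12. The mean was 0.131 ± 0.064 in proline and 0.214 ± 0.051 in water (SD, n = 6 each), and the fall of -0.79 on the log2 scale (SE 0.26) passed narrowly (limma adjusted p = 0.033). The call was lost with pairs as a random block (adjusted p = 0.22), on means of pairs without and with the pair number as a block (adjusted p = 0.058 and 0.084), on deposited values (-0.33, adjusted p = 0.45), and without any one of proline samples 2, 4 and 6 and water samples 1, 2 and 5 (adjusted p = 0.056 to 0.070). Without proline sample 3 it was -1.02 (adjusted p = 0.0023). With BADC1, 3 of the 4 measured pathway genes fell and 0 rose, where 20.9% of all tested probes were called lower, and their median was -0.77. With the means of pairs 2 fell, where 8.72% of all tested probes did. In the deposited values 1 fell, where 5.77% of all tested probes did. The 4 genes had a median of -0.29 there, and all tested probes one of 0.41. The genes were listed with earlier results of these data known, so these counts do not test the pathway. They also include BADC1, which lowers the activity of acetyl-CoA carboxylase. In RNA of whole samples, fewer cells of a type and less RNA per cell cannot be told apart.

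Some further genes linked to lipids were picked from the gene names of the table. Of 4 fibrillins, proteins of plastid lipid droplets, 1 fell and 0 rose, a share close to the 20.9% of all tested probes called lower. FBN2 (AT2G35490) had 0.114, 0.129, 0.172, 0.101, 0.149 and 0.129 in proline samples 1 to 6, against 0.293, 0.249, 0.263, 0.298, 0.217 and 0.291 in water samples 1 to 6. The groups did not overlap, and the fall was -1.03 on the log2 scale (SE 0.14, limma adjusted p = 9.1e-05). The adjusted p was 0.0071 with means of pairs and 0.075 in the deposited values. FBN6 (AT5G19940), FBN8 (AT2G46910) and FBN10 (AT1G51110) had log2 fold changes of 0.90, 0.41 and -0.11 (adjusted p = 0.14, 0.48 and 0.73), with 4, 4 and 8 of their 12 values at the floor. FBN6 passed without proline sample 2 (1.20, adjusted p = 0.026).

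Among 4 other acyl-lipid genes 1 rose and 1 fell, close to the 17.1% and 20.9% of all tested probes called higher and lower, while 0 were called higher and 1 lower on means of pairs. The genes called were those of plastid lipases, which release fatty acids from membrane lipids. HIL1 (AT4G13550), a galactolipid lipase, had 0.826, 0.772, 0.536, 0.526, 0.771 and 0.668 in proline samples 1 to 6, against 1.07, 1.08, 1.37, 1.28, 1.16 and 1.19 in water samples 1 to 6. It was lower in every proline sample, by -0.82 on the log2 scale (SE 0.13, limma adjusted p = 0.00041). The adjusted p was 0.025 in the deposited values and 0.038 with means of pairs, 0.060 with the pair number as a block on those means, and 0.054 to 0.13 when any 1 of those means was left out. PLIP1 (AT3G61680), a lipase of plastid phosphatidylglycerol, had 0.193, 0.197, 0.172, 0.160, 0.315 and 0.327 in proline samples 1 to 6, against 0.104, 0.144, 0.124, 0.0936, 0.108 and 0.125 in water samples 1 to 6. It was higher in every proline sample, by 0.92 on the log2 scale (SE 0.19, limma adjusted p = 0.0027). The adjusted p was 0.058 with means of pairs and 9.2e-06 in the deposited values, where the gene was 1.45 higher. LpxA (0.27) and AT4G24160, the CGI-58 homologue of lipid turnover (-0.42), did not pass (adjusted p = 0.41 and 0.44).

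The genes whose profile over the 12 samples was most like that of each fatty acid synthesis gene were found among 486 other probes with 1 gene that stayed above the floor. Likeness was the mean absolute difference between log2 profiles, each centred on its own mean. The difference between proline and water is part of such a profile. The closest genes were therefore bound to change much as the gene they resemble, and their calls after quantile normalization add no support. For AT1G24360 the closest were AT5G62360 (0.0880), AT5G49590 (0.0935) and AT1G02260 (0.113). For AT5G16230 they were PSBY, a small subunit of photosystem II (0.176), AT3G54210, the plastid ribosomal protein L17 (0.194), and AT2G04790 (0.195). These 6 genes had log2 fold changes of -0.69, -0.71, -0.85, -0.72, -0.50 and -0.82 in the order named, and all passed the test. With the means of pairs AT5G62360, PSBY and AT3G54210 did not pass (limma adjusted p = 0.061, 0.080 and 0.087). In the deposited values only AT2G04790 did (-0.33, adjusted p = 0.042), and AT5G62360, AT5G49590, AT1G02260, PSBY and AT3G54210 were at -0.03, -0.11, -0.22, -0.36 and 0.08. The closest to FATB were AT4G38670 (0.182), AT5G13410 (0.216) and AT1G50510 (0.237), none of which passed the test after quantile normalization. In the deposited values AT5G13410 and AT1G50510 passed as higher (0.52 and 0.72, limma adjusted p = 0.030 and 0.0075). AT1G24360 and AT5G16230 differed from each other by 0.236, so 71 probes were closer to AT1G24360 and 17 closer to AT5G16230 than these were to each other. FATB differed by 0.428 from AT1G24360 and by 0.468 from AT5G16230.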

How the data were processed

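The deposited table holds an intensity for each of 3439 probes in 12 samples, on a linear scale from 0 to 100 as its values show; how the authors scanned, corrected and scaled the arrays is not given in the sources used here. The number of arrays limits the precision. Groups and replicate numbers come from the sample titles. The platform annotation, which can be old, names the genes; of 692 probes with 1 gene, 690 matched the TAIR10.1 gene table, used for names only.

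Values were quantile-normalized, raised to a floor of 0.0377 (the 5th percentile of the positive deposited values) and log2-transformed. A further 342 probes never rose above that floor and were not tested. The comparison of proline and water used limma 3.58.1 (R 4.3.3, lmFit, eBayes, two-sided, Benjamini-Hochberg over 3097 probes, threshold 0.05). The fits were also run on simulated data. Of changes of 1 on the log2 scale, 88.1% were recovered with 6 samples per group and 65.7% with means of pairs. Of changes of 0.5, 44.8% and 29.9% were recovered, in the same order. Of the calls with 6 samples per group, 6.1% were false. The simulated samples were independent, where the data had a correlation of 0.543 within pairs. How that correlation affects the calls was therefore not tested by simulation. Pairs of genes were compared by exact permutation, run in Python 3.11.15.

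Members and lists were chosen with earlier results of these data known. The genes named were the 3 members, listed genes with their own probe, and the 3 most alike per member; the fibrillins and the other 4 lipid genes were picked from the gene names after the table was seen. The main fit and the exact permutation tests did not pair proline with water samples. In the replicate block, the sign-flip test and the differences by number, the replicate numbers were taken to pair them. The reason was that samples with the same number deviated together from their group means. The correlations were 0.46, 0.473, 0.289, 0.304, 0.199 and 0.162 for numbers 1 to 6. Within groups, the median absolute log2 difference was 0.160 to 0.178 in proline and 0.149 to 0.162 in water between samples 1 and 2, 3 and 4, and 5 and 6, and 0.288 to 0.398 and 0.227 to 0.285 between others. Alternatives were other scalings, floors, filters, the replicate block, means of pairs, pairs as a random block and left-out samples.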

Additional observations from a re-analysis of the deposited data

Results flagged for a closer look

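In 4 of the 42 groups of 6 values looked at, 1 sample lay far from the other samples of its group. Chance gives about 1 in 20 groups where values are independent and normally distributed. Samples here were alike within pairs and some values were at the floor, so the 4 of 42 cannot be set against that rate. Proline sample 3 had 0.254 for BADC1 (AT3G56130), where the remaining proline samples had 0.0761 to 0.129. Proline sample 1 had 0.0963 for LpxA, where the remaining ones had 0.0377 to 0.0592. LpxA also stood at 0.0595 in water sample 6, and FBN10 (AT1G51110) at 0.0796 in proline sample 6; in both cases the other 5 samples were at the floor of 0.0377, which fixes the outcome. This was judged on linear intensities, where no value of AT1G24360, AT5G16230 or FATB stood apart. The log2 scale of the tests was not looked at in this way. Proline sample 2 was the lowest for AT5G16230 (0.0445). Without it the log2 fold change of that gene was -0.63 (limma adjusted p = 0.0014).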

How the results depend on the processing

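AT1G24360 passed when any 1 of the 12 samples was left out (log2 fold change -0.79 to -0.72) and under 13 of 13 other settings (-0.83 to -0.26). AT5G16230 passed when any 1 of the 12 samples was left out (-0.86 to -0.63) and under 12 of 13 other settings. The exception was the values as deposited (-0.44). Among the 12 is the raised floor, which set every proline sample of this gene to the floor and so fixed the outcome. The settings passed by both genes include the exact permutation test of the single gene. Its p was fixed by the lack of overlap, so it is no separate check. FATB passed under none and was at -0.31 to -0.05 with 1 sample left out; its sign turned in the values as deposited (0.44) and without proline samples 3 and 4 (0.04). With the means of pairs and 1 mean left out, the ranges were -0.82 to -0.63 for AT1G24360, -0.97 to -0.61 for AT5G16230 and -0.41 to 0.12 for FATB. The replicate block left AT1G24360 at -0.75, AT5G16230 at -0.80 and FATB at -0.19 (adjusted p = 0.00087, 0.0059 and 0.35), changed no call of a gene named, and gave differences of 0.04, -0.57 and -0.61 between the genes in an exact sign-flip test (p = 0.969, 0.0312 and 0.125, adjusted over the 3 pairs 0.969, 0.0938 and 0.188). Its smallest possible p is 0.0312, which a single pair of genes cannot bring past the threshold after adjustment. This test was added after seeing the data, as were the left-out means. The differences from FATB passed under median centring (-0.70 and -0.86) and in the values as deposited (-0.70 and -0.88). These are hardly separate checks, since median centring shifts a whole sample and the difference between genes drops such a shift. With the means of pairs the differences (-0.57 and -0.61) did not pass. The exact permutation test could not have passed there with 3 values per group.

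Over all probes 1176 were called (529 higher and 647 lower; 1191 higher and 178 lower in the values as deposited), against 530 with the means of pairs, 540 with the pair number as a block on those means, 757 with pairs as a random block, 1282 with the replicate block and 1075 to 1136 with 1 sample left out; without 1 mean the 530 became 131 to 381. Among the other genes named, signs that turned were of values that had not passed, except AT3G54210 (0.08 in the values as deposited). Those were AT4G24160 (0.07 as deposited, 0.02 with a floor at the 20th percentile), AT1G51110 (0.04 without proline samples 3 and 4), AT4G38670 (0.33 as deposited) and AT5G13410 (-0.05 under median centring). With 1 sample left out, AT1G51110 was at -0.30 to 0.01, AT5G13410 at -0.10 to 0.11 and AT1G50510 at -0.08 to 0.17. With 1 mean of pairs left out, AT4G24160 was at -0.94 to 0.08, LpxA at -0.05 to 0.45, AT1G51110 at -0.29 to 0.04, AT4G38670 at -0.31 to 0.11, AT5G13410 at -0.23 to 0.21 and AT1G50510 at -0.18 to 0.28. The causes were not tested. The dim probe of AT5G16230 limits its value, since intensities near the floor carry little signal over background.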
